A study of Mus musculus with 6 samples.

Results

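The cytosolic ribosomal protein genes encode the proteins of the ribosome that works in the cytoplasm, and they are described here in mouse granulosa cells (GCs) cultured with or without dihydrotestosterone (DHT). The genes were taken by name: every gene whose symbol starts with Rpl or Rps followed by a digit, a p or an a, leaving out the pseudogenes named with -ps and the Rps6k kinases. This took 89 of the 16300 genes in the table, here called the members. Of the 89 genes, 77 encode the standard proteins of the ribosome, 46 of the large (60S) and 31 of the small (40S) subunit. The other 12 are 5 paralogs (Rpl22l1, Rpl36al, Rpl7l1, Rps27l and Rps4l), 6 retrocopies or like genes of low abundance (Rpl32l, Rpl6l, Rpl37rt, Rps27rt, Rps3a2 and Rps3a3) and Rps19bp1, a nuclear protein that binds RPS19 and is no part of the mature ribosome.

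RNA-seq was performed on 6 libraries of wild type C57BL/6J GCs from mice 8 to 9 weeks of age, 3 of control cells and 3 of cells that had 25 nM DHT during 24 h, to find which transcripts the androgen changes. DHT is an androgen that aromatase cannot turn into estradiol. By the study's methods each library pooled the GCs of several mice, collected by needle puncture at estrus and cultured first with serum and then without it, and control cells had medium alone. The labels give ovary as the tissue and do not say which libraries share a pool, so the p-values measure only the spread between these 6 libraries.

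A ribosome holds about the same number of copies of nearly every ribosomal protein, and the mRNAs of these proteins are among the most abundant of growing cells. Many of them begin with a C followed by a run of pyrimidines, the 5′ terminal oligopyrimidine (TOP) tract, through which the mTORC1 pathway and LARP1 adjust their translation. In the follicle, GCs divide, secrete and make steroids under FSH, LH and androgens, and all of this needs protein synthesis. RNA-seq counts the mRNA and not its translation.

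The tract is a feature that many of these mRNAs share with other TOP mRNAs, and 8 of the standard genes whose tract begins at the start itself are shown first, followed by those of Rps28 and Rpl22l1, on which later results turn. Each window runs from 10 bases before to 20 bases from the RefSeq start (build GRCm38.p6) and is written 5′ to 3′ along the gene, with capitals for the tract, a C followed by at least 4 pyrimidines, that begins at the start or, for Rpl22l1, near it. Other stretches that meet this rule stay in lower case.
Rpl15, chr14:18270967-18270996, minus strand: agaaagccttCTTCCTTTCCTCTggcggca
Rpl35, chr2:39005112-39005141, minus strand: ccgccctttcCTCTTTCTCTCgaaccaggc
Rps10, chr17:27635225-27635254, minus strand: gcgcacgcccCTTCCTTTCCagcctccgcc
Rps6, chr4:86857348-86857377, minus strand: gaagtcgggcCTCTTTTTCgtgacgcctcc
Rps18, chr17:33955646-33955675, minus strand: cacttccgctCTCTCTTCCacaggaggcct
Rpl28, chr7:4792955-4792984, plus strand: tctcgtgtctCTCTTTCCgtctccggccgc
Rps27, chr3:90213629-90213658, minus strand: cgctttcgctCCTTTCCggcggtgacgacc
Rpl38, chr11:114668570-114668599, plus strand: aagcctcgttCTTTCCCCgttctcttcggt
Rps28, chr17:33824543-33824572, minus strand: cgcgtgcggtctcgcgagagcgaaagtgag
Rpl22l1, chr3:28805498-28805527, plus strand: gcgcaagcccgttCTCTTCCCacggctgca
Of the 89 genes, 65 had a RefSeq start, and 15 of these 65 (23.1%) had a tract that begins at the start itself, against 345 of 11340 genes of the table with a start (3.04%). Within 10 bases of the start on the same strand, 38 of 65 members (58.5%) held a tract, against 37.2% of all genes. The Rps28 window holds none, and that of Rpl22l1 begins a few bases past the start. A match describes these letters only, and a start in RefSeq need not be the start these cells use.

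The table gives each gene's reads after scaling by a DESeq2 size factor per library, here called normalized counts, and the recovered reads summed to between 36111177 and 41928585 per library. Of 12 granulosa cell markers, 11 were in the table, with means from 128 to 105587 normalized counts, and Cyp19a1 was not. Their log2 fold changes (DHT over control) ran from -0.85 to 0.49. No theca or erythroid marker of the lists was in the table. Stromal and smooth muscle markers (6 of 6 genes measured) summed to between 6082 and 8370 normalized counts in control and between 9764 and 11488 in DHT libraries, led by Acta2. Most of this list did not follow the sum: 2 genes had a log2 fold change above 0 and 4 below, with a median of -0.18. Oocyte markers (7 of 7) summed to between 355 and 834 in control and 108 and 617 in DHT libraries. Leukocyte markers (4 of 5) summed to between 471 and 546 in control and 362 and 605 in DHT libraries, and endothelial markers (4 of 4) to between 150 and 179 in control and 141 and 199 in DHT libraries. The part of these cells in the values of the ribosomal protein genes was not tested.

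No ribosomal protein gene passed the test for a change with DHT. The test was limma with an intensity trend on log2(normalized count + 1), with p-values adjusted by Benjamini-Hochberg over 16292 genes, those averaging 10 or more normalized counts, and all 89 members were among them. At an adjusted p of at most 0.05, it called 0 of 89 members, where 11.2% of all genes tested were called (6.52% higher and 4.66% lower in DHT); 1.31% were also past an absolute log2 fold change of 1. At an unadjusted p under 0.05 there were 3 members, Rps28, Rps27l and Rpl32l, all lower in DHT, or 3.37% of the members against 25.2% of all genes. edgeR called 0 members, where it called 11.1% of all genes, and DESeq2 called 1, Rps28 (adjusted p = 0.037), where DESeq2 called 13.1% of 14717 genes. With libraries scaled to total reads in place of size factors, the median log2 fold change of all genes was -0.035, against -0.005 here, and 907 genes were called higher and 1012 lower, against 1063 and 760 here, with 0 members called and 18 of 89 above 0. In bulk RNA, fewer cells of a type and less RNA per cell cannot be told apart, and each value is a level relative to the other transcripts of its library.

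The fold changes of the standard ribosomal proteins lay close to 0 and were measured closely. Over the 77 genes the log2 fold change (DHT over control) ran from -0.16 (Rps28) to 0.07 (Rpl10), with a median of -0.011, against a median of -0.005 over all genes tested. The median was -0.011 for the 46 large-subunit genes and -0.014 for the 31 small-subunit genes, with 28 of the 77 genes above 0 and 49 below. The median standard error was 0.041 over the 77 genes and 0.078 over all genes tested. The 95% interval of the fold change stayed within 1.2-fold in either direction for 75 of the 77 genes, a limit chosen after the values were seen. The exceptions were Rps28 and Rpl39, whose intervals ran from -0.27 to -0.05 and from -0.27 to 0.07. No upper bound among the 77 genes was above a log2 fold change of 0.17.

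**Figure D1:**
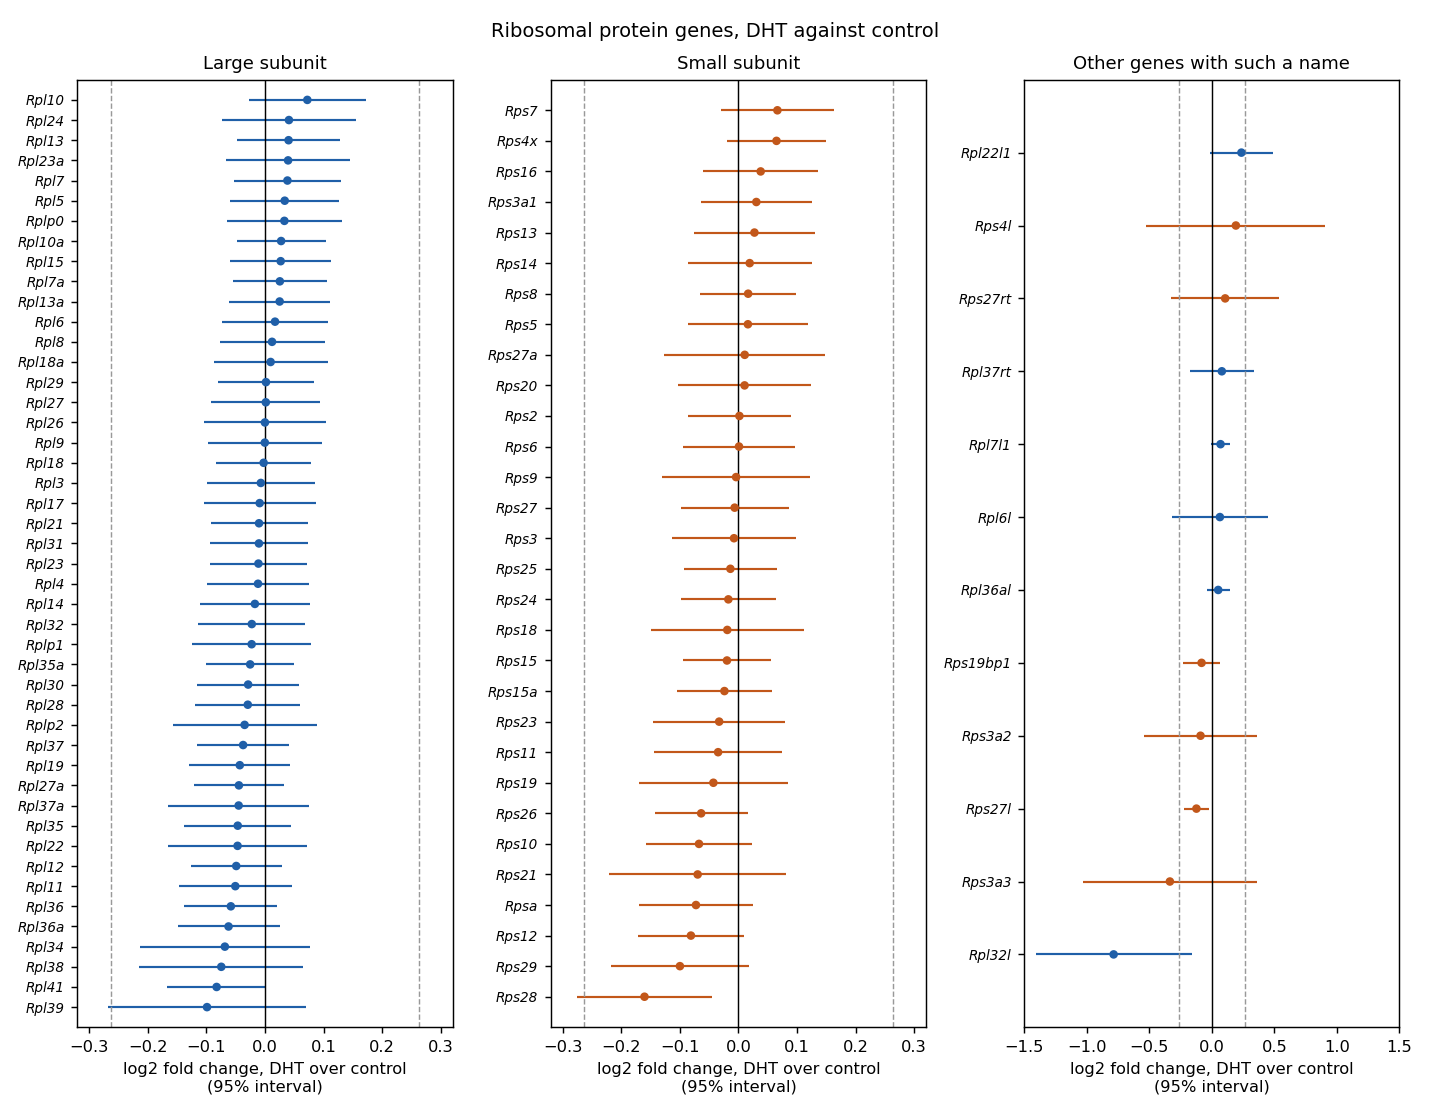
Log2 fold change of 88 of the 89 genes with its 95% interval from limma (n = 3 libraries per group), for the standard genes of the large subunit (left), those of the small subunit (middle) and the other genes (right, on a wider axis); dashed lines mark 1.2-fold. The standard genes lie between -0.16 and 0.07, and the widest intervals belong to the low-abundance genes on the right.

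Compared per length, the genes differed among themselves far more than between the groups. In RPKM (reads scaled by exonic length and by the library's total), Rplp1 had the highest level, at 1338 ± 53.6 in control and 1291 ± 49.9 in DHT (SD, n = 3 each). Rplp0 followed with 797 ± 8.23 and 799 ± 17.9 RPKM, and Rps3a1 with 725 ± 11.9 and 726 ± 26.0 RPKM. RPLP0 and RPLP1 belong to the stalk that calls elongation factors to the ribosome, and RPS3A is a protein of the small subunit. The median of the 77 genes was 212 RPKM, 7 were above 500 RPKM and 11 below 100 RPKM.

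The lowest of the 77 was Rps15a with 52.9 RPKM over the 6 libraries, and the highest level was 24.9 times the lowest. The low place of Rps15a came with an exonic length of 6270 bases summed over all its annotated transcripts. Per base of its shortest principal transcript (640 bases), a measure added after seeing the data, Rps15a had 518 RPKM and rank 45, while Rplp1 stayed first. By the same measure Rps28 had rank 4, Rplp0 rank 5 and Rps3a1 rank 15 of the 89 genes. The order of levels and the 24.9-fold span thus hold for the summed exonic length only. Between the group means the order of the 77 genes shifted by at most 5 places, and Spearman's rho across the genes was 0.998, a description, since the genes share their libraries and lengths. The lowest of all 89 genes were Rps3a3 (0.49 RPKM), Rpl32l (0.83 RPKM) and Rps4l (0.96 RPKM). Genes of such low reads had a wide spread, and 7 members averaged fewer than 130 normalized counts.

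**Figure D2:**
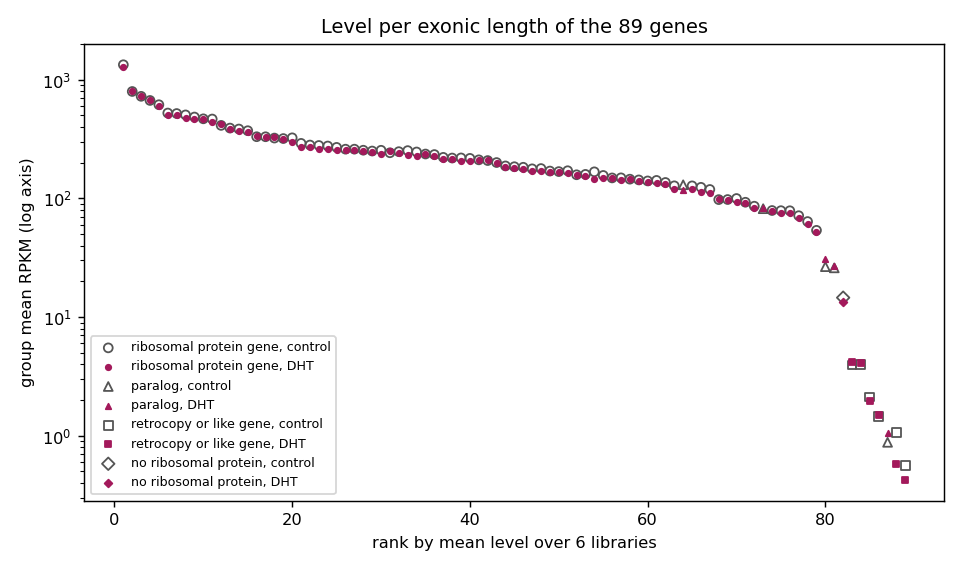
Mean level of each of the 89 genes in control (open) and DHT (filled) libraries in RPKM on a log axis, ranked by the mean over 6 libraries, with symbols for the standard genes, paralogs, retrocopies or like genes, and Rps19bp1. The 77 standard genes lie above 50 RPKM, and open and filled symbols nearly coincide over them.

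Among large-subunit genes, the P stalk was measured in 4 genes, none called. Rplp0, the base of the stalk, had 49891, 50672 and 51923 normalized counts in control and 50311, 52442 and 53284 in DHT libraries, so the groups overlapped (log2 fold change 0.03 ± 0.04 SE, 95% interval -0.07 to 0.13). Its partners Rplp1 and Rplp2 had log2 fold changes of -0.02 and -0.03, and Rpl12, which anchors the stalk, had -0.05. Rpl5 and Rpl11 form a particle with the 5S rRNA that also binds MDM2, the ubiquitin ligase of p53. Rpl5 had 22581, 22599 and 22140 normalized counts in control and 22305, 22554 and 24082 in DHT libraries, and Rpl11 had 16536, 16114 and 15949 in control and 15014, 15472 and 16463 in DHT libraries. Both overlapped between groups, with log2 fold changes of 0.03 (interval -0.06 to 0.13) and -0.05 (interval -0.15 to 0.05).

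Other standard large-subunit genes covered the same narrow range. Among them Rpl10, whose protein joins late in assembly, had the highest log2 fold change. Rpl10 had 25367, 26214 and 24840 normalized counts in control and 25906, 26371 and 28091 in DHT libraries. Its groups overlapped through the second control and the first DHT library (log2 fold change 0.07, interval -0.03 to 0.17, adjusted p = 0.356). Rpl39, a short protein of the tunnel through which new chains leave, had the lowest log2 fold change of the standard large-subunit genes. It had 7508, 6818 and 6186 normalized counts in control and 6065, 6122 and 6942 in DHT libraries. The spread within each group was wider than the difference (log2 fold change -0.10, interval -0.27 to 0.07, adjusted p = 0.464). Rpl3 and Rpl4, whose proteins reach toward the catalytic centre and the tunnel, each had a log2 fold change of -0.01.

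Rpl41, which encodes the smallest protein of the ribosome, had 14772, 14345 and 14564 normalized counts in control and 13412, 13614 and 14235 in DHT libraries. All DHT values lay below all control values, at a log2 fold change of -0.08 (interval -0.17 to 0.00, adjusted p = 0.207). Rpl41 was picked after its values were seen.

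In the small subunit, Rps28 had the largest difference of the 77 genes. RPS28 lies at the channel where mRNA leaves the small subunit, and its gene (ENSMUSG00000067288) is on the minus strand at chr17:33819027-33824562 of GRCm38. It had 11944, 10396 and 10880 normalized counts in control and 9850, 9829 and 9998 in DHT libraries. The DHT libraries lay close together and below all control libraries, and the first control library stood above the other two. The log2 fold change was -0.16 ± 0.05 (SE, interval -0.27 to -0.05, limma adjusted p = 0.0796). Without that first control library it was -0.10 (adjusted p = 0.153), and without the second it was -0.20 (adjusted p = 0.0401), in a fit that called 8.39% of all genes. Kank3, transcribed from the other strand, shares 88 exonic bases with Rps28 and averaged 155 normalized counts, and 53.3% of the 150-base windows of Rps28 transcripts occur in other annotated genes, chiefly Gm10443. Reads of such windows can be lost or misassigned where only unique reads are counted.

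Rps29, a zinc-binding protein of the small-subunit head, had 7127, 6671 and 6416 normalized counts in control and 6323, 5946 and 6592 in DHT libraries. The third DHT library lay within the control range (log2 fold change -0.10, interval -0.22 to 0.02, adjusted p = 0.270). Rps4x, an X-linked gene, lay on the other side, with 25162, 26012 and 26474 normalized counts in control and 27103, 26921 and 27178 in DHT libraries. Its groups did not overlap, at a log2 fold change of 0.06 (interval -0.02 to 0.15, adjusted p = 0.321). Rps7 had the highest log2 fold change of the standard small-subunit genes, at 0.07 (adjusted p = 0.378).

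A list of 9 genes mutated in Diamond-Blackfan anaemia, a failure of red cell formation, had no called gene, 2 values above 0 and 7 below. Rps19, its best known gene, had 13807, 12504 and 12337 normalized counts in control and 12028, 12139 and 13343 in DHT libraries. These overlapped widely (log2 fold change -0.04, interval -0.17 to 0.08). Rps10 (-0.07), Rps26 (-0.06), Rpl35a (-0.03) and Rps24 (-0.02) had log2 fold changes below 0 and Rps7 (0.07) above it.

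None of the 5 paralogs passed the test, and 4 of them had a log2 fold change farther from 0 than that of the partner gene, a difference that was not tested. Rpl22l1 (ENSMUSG00000039221, chr3:28805436-28807424, plus strand of GRCm38), the paralog of the RNA-binding protein RPL22, had 2260, 1987 and 1854 normalized counts in control and 2069, 2317 and 2838 in DHT libraries. The first DHT library lay among the controls and the third stood above all others. The log2 fold change, the highest of the 89, was 0.24 ± 0.11 (SE, interval -0.01 to 0.49, limma adjusted p = 0.226). It was 0.11 without the third DHT library (adjusted p = 0.531) and 0.34 without the first (adjusted p = 0.0920). Rpl22 itself had 9221, 8814 and 8399 normalized counts in control and 8067, 8442 and 9091 in DHT libraries, a log2 fold change of -0.05. Per summed exonic length, Rpl22l1 made up 26.4%, 24.8% and 24.4% of the RPKM of the pair in control and 27.3%, 28.7% and 31.4% in DHT libraries. These percentages depend on the length used. Per base of the shortest principal transcript, Rpl22l1 had 103 and Rpl22 471 RPKM, averaged over all libraries. The DHT shares all lay above the control shares, a description with no test. The share of Rpl36al in its pair with Rpl36a was likewise higher in all DHT libraries (42.4% to 43.1%, against 40.3% to 41.7% in control), while the shares of Rps27l, Rpl7l1 and Rps4l overlapped between groups.

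Rps27l, a paralog of RPS27 whose gene is a known p53 target, had 4186, 4220 and 3860 normalized counts in control and 3857, 3644 and 3752 in DHT libraries. The groups were separated only by the gap between the third control and the first DHT library. The log2 fold change was -0.12 ± 0.05 (SE, interval -0.23 to -0.02, adjusted p = 0.125), and -0.16 without that control library (adjusted p = 0.0336), in a fit that called 12.9% of all genes. Rps27, by contrast, had a log2 fold change of -0.01 (interval -0.10 to 0.09). Of its 150-base windows, 98.0% occur in other genes, chiefly the retrocopy Rps27rt, and where its counted reads fall was not tested. Rps27rt had 54.4, 51.1 and 64.8 normalized counts in control and 63.6, 70.9 and 50.1 in DHT libraries.

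Rpl7l1, which acts in assembly of the large subunit, had 3492, 3502 and 3487 normalized counts in control and 3696, 3678 and 3623 in DHT libraries. The control values were nearly equal and the DHT values all higher (log2 fold change 0.07, interval -0.01 to 0.14, adjusted p = 0.238), and its partner Rpl7 had a log2 fold change of 0.04. Rpl36al had 0.05 and Rpl36a -0.06. Rps4l, a retrogene of the Rps4x kind with a mean of at most 38.8 normalized counts in a group, had 0.19 with an interval from -0.52 to 0.91. The paralogs Rpl3l, Rpl10l and Rpl39l were not among the genes of the table, so no value can be given for them.

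**Figure D3:**
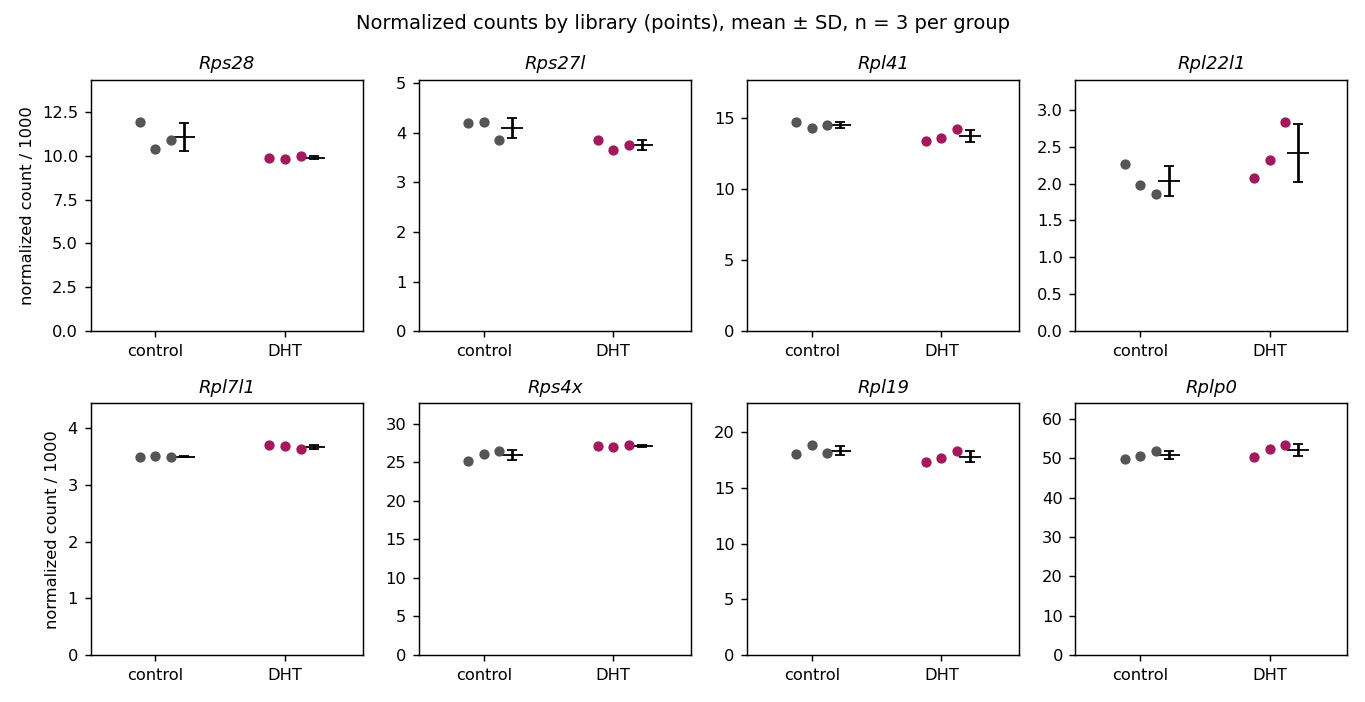
Normalized counts of 8 genes, in units of 1000, in each library, with the group mean and SD beside the points (n = 3 per group) and axes from 0. Rps28, Rps27l and Rpl41 have all DHT points below the control points, Rpl7l1 and Rps4x above them, and Rpl22l1, Rpl19 and Rplp0 overlap.

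Of the retrocopies and like genes, Rpl32l had the largest log2 fold change of all 89 members, on few reads. It had 17.8, 16.7 and 14.8 normalized counts in control and 8.81, 9.82 and 8.71 in DHT libraries, without overlap (log2 fold change -0.79 ± 0.28 SE, interval -1.41 to -0.16, adjusted p = 0.110). It is a single-exon gene (ENSMUSG00000111356) at chr10:20208490-20208888, plus strand of GRCm38, and its parent gene Rpl32 had a log2 fold change of -0.02. limma without the intensity trend called it (adjusted p = 0.0158), where that fit called 4.93% of all genes. Rps3a3 had 11.9, 19.5 and 20.4 normalized counts in control and 15.7, 12 and 12 in DHT libraries, which overlapped (interval -1.03 to 0.36). Rpl37rt had a log2 fold change of 0.08 and Rps19bp1 -0.08, both with overlapping groups.

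Ribosomal protein genes often serve as references in quantitative PCR, and Rpl19 served as such a reference in the study's assays of cultured GCs. Rpl19 (ENSMUSG00000017404, chr11:98026710-98030492, plus strand of GRCm38) had 18097, 18838 and 18113 normalized counts in control and 17373, 17737 and 18321 in DHT libraries. The third DHT library lay inside the control range, and the log2 fold change was -0.04 ± 0.04 (SE, interval -0.13 to 0.04, adjusted p = 0.538). Under the alternatives tried it stayed between -0.07 and -0.02. Of 7 such reference genes none was called: Rps29 had the lowest log2 fold change (-0.10) and Rplp0 the highest (0.03), and Rpl13a (0.02), Rpl32 (-0.02), Rps18 (-0.02) and Rpl4 (-0.01) lay between them.

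The control and DHT values did not overlap in 10 of the 89 genes (11.2%), where they did not overlap in 30.6% of all genes tested. They were lower in DHT for 8 genes, among them Rpl12, Rpl27a, Rpl32l, Rpl41, Rps26, Rps27l and Rps28, and higher for Rps4x and Rpl7l1. Over all genes tested, 14.7% were lower and 15.9% higher without overlap. These genes were singled out by their values.

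The standard genes moved together from library to library, and this movement crossed the groups. In the first DHT library 3 of the 77 genes lay above their own mean over the 6 libraries, in the second 19 and in the third 65. In the control libraries 52, 52 and 26 genes did. The median deviation of the 77 genes was 0.017, 0.015 and -0.012 on the log2 scale in control and -0.042, -0.017 and 0.048 in DHT libraries, so the lowest and the highest library were both DHT libraries. Over all genes tested the median deviation was within 0.003 in every library. Without the first DHT library the median log2 fold change of the 89 members was 0.010, and without the third it was -0.036, against -0.010 with all libraries. In both subunits the same libraries were the lowest and the highest: the large-subunit median was -0.040 in the first and 0.047 in the third DHT library, and the small-subunit median was -0.055 and 0.048.

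The share of all reads that fell on the 89 genes was 3.49%, 3.46% and 3.36% in control and 3.28%, 3.32% and 3.45% in DHT libraries. The third DHT library lay among the controls. The mean was 3.43% ± 0.07 in control and 3.35% ± 0.09 in DHT (SD, n = 3 each). Reads on large-subunit genes were 1.46 to 1.47 times those on small-subunit genes in control and 1.46 to 1.49 times in DHT libraries, so the balance of the subunits was nearly constant.

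**Figure D4:**
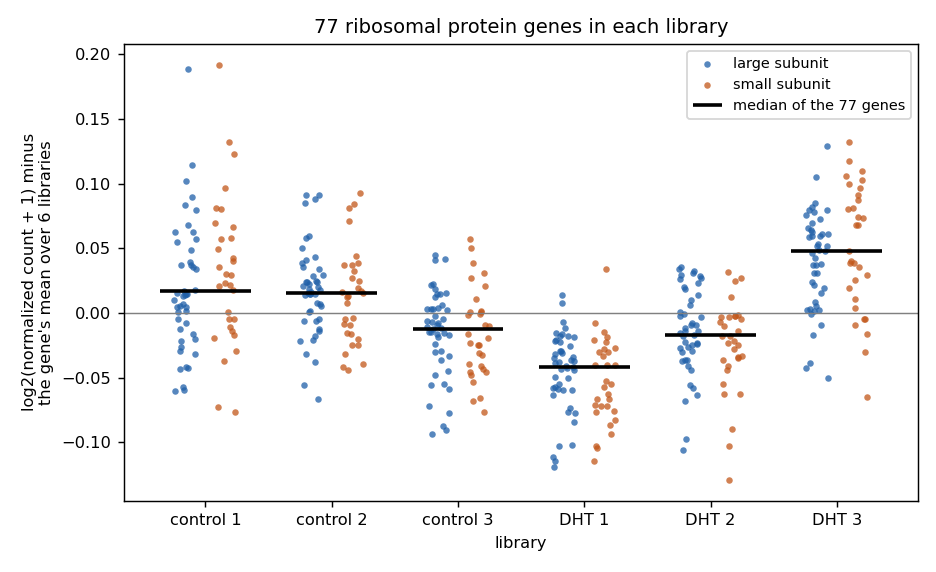
Deviation of each of the 77 standard genes from its own mean over the 6 libraries, on the log2(normalized count + 1) scale, for each library, with large-subunit genes in blue, small-subunit genes in orange and the median of the 77 genes as a bar. The medians run from -0.042 in the first to 0.048 in the third DHT library, and the controls lie between them.

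Within the 77 genes the small differences tended to follow transcript length. Spearman's rho between the log2 fold change and the length of the shortest principal transcript was 0.47 over 77 genes that share the same 6 libraries, a relation found after seeing the data and given without a test. Of 28 genes with a transcript under 600 bases, 24 had a log2 fold change below 0, with a median of -0.032. These include Rps28 (271 bases) and Rps29 (390 bases). Among 32 genes of at least 600 and under 1000 bases, 16 lay above and 16 below 0, with a median of 0.000. Among 17 genes of 1000 bases or more, 8 lay above and 9 below, with a median of -0.007. The median deviation of the short genes was 0.053, 0.023 and -0.019 in control and -0.057, -0.029 and 0.039 in DHT libraries. That of the longest class was 0.005, 0.018 and -0.008 in control and -0.038, -0.012 and 0.052 in DHT libraries. These classes differed most in the first control library. After each library was corrected for GC content and length across all genes, rho with length was 0.47 again, while rho with GC content went from -0.17 to -0.42. Of the 13 standard genes with a tract at the RefSeq start, such as Rpl15 and Rps6 above, 2 lay above 0 and 11 below (median -0.025), and of the 44 with a start but no tract at it 16 lay above and 28 below (median -0.011).

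**Figure D5:**
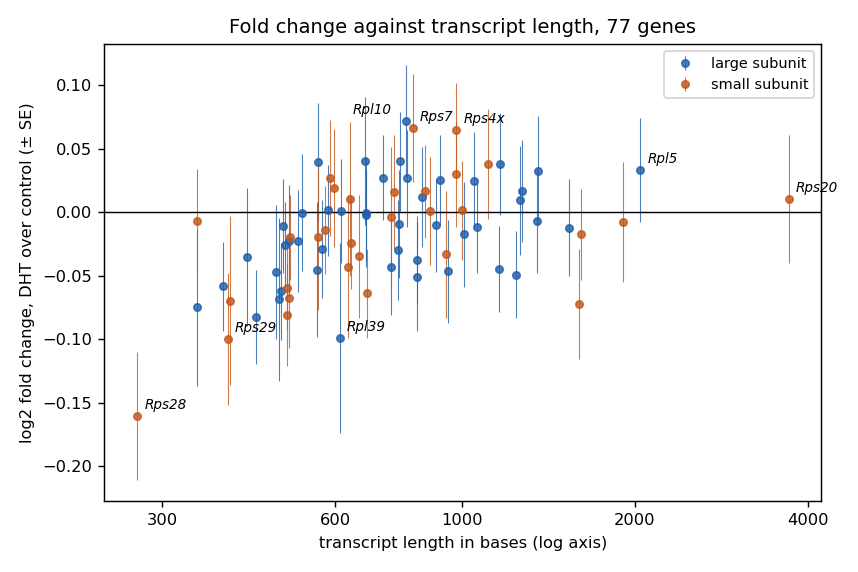
Log2 fold change (± SE) of the 77 standard genes against the length of the shortest principal transcript on a log axis, by subunit. Genes under 600 bases lie mostly below 0, with Rps28 the shortest and lowest, while longer genes scatter on both sides.

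Near-identical copies and overlapping genes limit single values. Of the 77 genes, 68 share some 150-base window of transcript with another annotated gene and 24 share at least 50% of their windows, led by Rps27 (98.0%), Rpl10 (90.9%), Rpl5 (88.2%) and Rps10 (88.0%). The median log2 fold change was 0.006 in these 24 genes and -0.023 in the other 53. For 15 members another gene of the table lies over their exons on the opposite strand, among them Rps18 with Vps52, Rpl28 with Ube2s and Rps25 with Trappc4. The kit does not mark strand, so reads of such overlaps cannot be told apart. With all 6 libraries limma called none of these genes, and Rps28, which DESeq2 called, is among both sets.

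The ribosomal components Fau and Rack1 fall outside the name rule, and neither was called. Fau encodes RPS30 fused to a ubiquitin-like sequence, and Rack1 sits on the head of the small subunit. Rack1 had 35870, 36127 and 35118 normalized counts in control and 33057, 34010 and 34833 in DHT libraries. Its groups did not overlap, at a log2 fold change of -0.07 (interval -0.16 to 0.02, adjusted p = 0.296). Fau had a log2 fold change of -0.06 (adjusted p = 0.507).

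The genes that make ribosomes and control their synthesis were read against the same 6.52% called higher and 4.66% called lower over all genes. In 14 genes of RNA polymerase I, 11 box H/ACA proteins and nucleolar chaperones, 10 RPS6 kinases and 17 other TOP mRNAs, 0 were called, with 0, 1, 0 and 2 genes at an unadjusted p under 0.05 in limma, which 25.2% of all genes had. Among the TOP mRNAs, Eef1a1, the elongation factor that brings tRNA to the ribosome, had a log2 fold change of 0.01 (interval -0.12 to 0.15). In 33 small-subunit assembly factors, 1 was higher and 1 lower. Utp20, of the early 90S particle, fell by 0.19 on the log2 scale, from 4043, 4266 and 4514 normalized counts in control to 3768, 3803 and 3634 in DHT libraries (adjusted p = 0.0294). Krr1, of the same particle, rose by 0.28 (adjusted p = 0.0409).

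In 36 large-subunit assembly factors, 2 were lower and 0 higher. Mdn1, the large AAA ATPase that strips factors from the maturing 60S particle, had 5558, 5672 and 5588 normalized counts in control and 4825, 4807 and 4474 in DHT libraries, and fell by 0.25 ± 0.04 (SE) on the log2 scale (adjusted p = 0.00412). All DHT values lay below all control values. Noc3l, an early 60S factor, fell by 0.21 (adjusted p = 0.0262). Of 10 host genes of small nucleolar RNAs, Gas5, itself a TOP transcript, fell by 0.15 (adjusted p = 0.0477).

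In 24 genes of MYC and mTORC1 control, Mycn was called higher, with 151, 131 and 119 normalized counts in control and 191, 216 and 181 in DHT libraries (log2 fold change 0.55 ± 0.13 SE, adjusted p = 0.0263). Myc, at far more reads, had a log2 fold change of -0.08 (interval -0.21 to 0.06, adjusted p = 0.476). Mtor had 0.14 (adjusted p = 0.0823) and Larp1, which binds the TOP tract, 0.04 (adjusted p = 0.636). Of 27 initiation factors, Eif3l, a subunit of eIF3, rose by 0.22 (adjusted p = 0.0115). Of 10 p53 checkpoint genes 0 were called and 4 had an unadjusted p under 0.05 in limma, all lower in DHT: Phlda3, Ccng1, Zmat3 and Bax. In either direction 25.2% of all genes had such a p.

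Most of these companion calls were lost without 1 or another library. Of 18 alternatives, the call of Mdn1 was lost in 0, that of Eif3l in 2 (without the third DHT library, adjusted p = 0.0585, and without the intensity trend) and those of Mycn in 6, Utp20 and Noc3l in 7, Krr1 in 9 and Gas5 in 10. The calls of Utp20 and Noc3l were lost without the second control, the third control or any DHT library (adjusted p up to 0.115 and 0.112). Mycn was lost without the second control or any DHT library (up to 0.116), and Krr1 and Gas5 without the first control, the third control or any DHT library (up to 0.142 and 0.162). The direction was the same in every one of these alternatives.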

How the data were processed

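The authors trimmed reads with Trimmomatic 0.36, mapped them to GRCm38 by STAR 2.5.2b, and ran featureCounts (Subread 1.5.2) on uniquely mapped exonic reads, per the labels and the study's methods. Per gene and library, the signal deposited by the authors is a normalized count: reads over the library's DESeq2 size factor. A deposited second table of selected genes, and the authors' fold changes and p-values, were not used. The annotation release and strand setting of the counting are not given in the sources used here. The label text on extraction names whole ovary and that on treatment names DHT for all 6 samples, so groups were taken from the treatment field (3 control, 3 DHT).

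Dividing each library by the gap between neighbouring low values gave whole reads for 100% of 16300 values (tolerance 0.01). The automatic unit check found the step in 3 of the 6 libraries only, since the smallest value of the others was not 1 read or their step was close to 1, so the count tests on these reads serve as alternatives alone. The smallest mean was 10.2 reads per gene. limma 3.58.1 (R 4.3.3) was run with an intensity trend on log2(normalized count + 1) for genes with a mean of at least 10, adjusted by Benjamini-Hochberg over 16292 genes. An exact permutation test over 3 against 3 libraries cannot give a p below 0.1. Alternatives were edgeR 4.0.16, DESeq2 1.42.0, other pseudocounts (0.5, 8), filters (none, a mean of at least 50), scalings (TMM, quantile, total reads), no intensity trend, the replicate number as a block, a GC and length correction and leaving out each library. The script was tested on simulated data with changes larger than any of the standard genes, so that check does not bear on differences as small as theirs.

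RPKM used the summed exonic length of GENCODE M21 (GRCm38) and total recovered reads. The tract search read RefSeq start windows (GRCm38.p6) on the gene's strand. Transcript windows of 150 bases, the read length, were compared between all annotated genes.

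The members and lists were chosen with earlier results of these data known. Genes named were the paralogs, their partners, the P stalk, reference genes, 5S and anaemia lists, the 5 highest and 5 lowest log2 fold changes (none passed the test), the 3 highest and 3 lowest levels, and Rps19bp1. From companion lists up to 3 called genes per direction were named, with Fau and Rack1. Some genes that this rule names are not reported here singly. Rpl27a, Rpl41, Rps6, Rpl15, Rpl35, Rpl28, Rpl38, Rps15a, Rps25, Eef1a1, Myc, Mtor, Larp1 and the p53 genes were named after their values were seen.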

Additional observations from a re-analysis of the deposited data

How the results depend on the processing

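The main test called 0 members, and 1 was called (lower in DHT) in limma without the intensity trend (Rpl32l) and in DESeq2 (Rps28). Leaving out a library gave 0 to 1, with Rps28 called without the second control (8.39% of all genes called) and Rps27l without the third (12.9%). No setting called a member higher, or one past an absolute log2 fold change of 1. The median log2 fold change of the 89 members was -0.040 with scaling to total reads, and ran from -0.036 to 0.010 without a library. The 7 called companion genes became 1 without the intensity trend and 1 to 9 without a library. Without the 10 genes with the most reads in the total, the share of reads on the members was 3.63% in control and 3.55% in DHT. Called genes over the whole table numbered 804 without the trend and 970 and 931 without the second DHT library or the third, against 1823.

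No pairing by replicate number was seen in the deviations from the group means (same-number correlations of 0.0058, 0.067 and -0.24, others from -0.19 to 0.23). With 3 libraries per group, these correlations cannot decide whether libraries share a pool. A replicate block gave 633 genes higher and 357 lower, 0 of them members and 2 companion genes.

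Of the 89 members, 35 had a log2 fold change above 0, against 18 with total reads, 27 with quantile normalization, and 21 to 52 without a library. Among the genes that the naming rule takes, log2 fold changes close to 0 changed sign for Rpl13a with total reads (-0.0047), Rpl4 with the GC and length correction (0.00031) and Rplp0 with quantile normalization (-0.0017). Over the fits without a library, sign changes came in these ranges: Rpl13a (-0.0021 to 0.040), Rpl3 (-0.036 to 0.016), Rpl32 (-0.054 to 0.0034), Rpl5 (-0.00064 to 0.055), Rplp1 (-0.058 to 0.0028), Rplp2 (-0.085 to 0.0052), Rps18 (-0.074 to 0.023), Rps19 (-0.090 to 0.0081), Rps24 (-0.031 to 0.00066), Rps27 (-0.028 to 0.025), Rps27rt (-0.0018 to 0.245), Rps3a1 (-0.0025 to 0.053) and Rps4l (-0.047 to 0.558). The cause was not tested. Depth was ample for the standard genes (at least 3928 normalized counts on average), and low for the 7 genes under 130, whose intervals were wide.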

Other observations

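The pseudogenes named with -ps lie outside the name rule and were measured too. Of 46 such genes, limma called 0, with 3 at an unadjusted p under 0.05 (11.2% and 25.2% of all genes), and their mean levels ran from 10.1 to 386 normalized counts. The control and DHT values did not overlap in 6 of them with DHT higher and in 1 with DHT lower, where 15.9% and 14.7% of all genes did so. The median log2 fold change was 0.065, with 29 genes above 0 and 17 below, against a median of -0.011 in the 77 standard genes. Rps23-ps1 had 44.5, 44.6 and 51.9 normalized counts in control and 71.4, 65.4 and 70.7 in DHT libraries (log2 fold change 0.55 ± 0.16 SE, adjusted p = 0.0599). Rpl10-ps3, the gene that shares the most transcript windows with Rpl10, had 21.8, 20.4 and 32.4 in control and 40.1, 45.8 and 34.8 in DHT libraries (log2 fold change 0.69 ± 0.24 SE, adjusted p = 0.112). These examples were picked after their values were seen, and reads of pseudogenes and parent genes cannot be fully told apart.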
